A study of Mus musculus with 8 samples.

Results

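Desmosomes are the spot junctions that rivet neighbouring epithelial cells together, and the genes of their cadherins and plaque proteins were described here across the endometrium of mutant and wild-type (WT) mice. The members were the 10 mouse genes *Dsg2*, *Dsg3*, *Dsc2*, *Dsc3*, *Pkp1*, *Pkp2*, *Pkp3*, *Dsp*, *Jup* and *Perp*, found by gene symbol among the 52325 genes of the deposited count table. Each symbol matched 1 row, and all 10 genes were among the 18174 that had enough counts to be tested. RNA was sequenced from laser-captured endometrium of 4 Thra1PV/+ and 4 WT female mice, both synced to the metestrus phase. Thra1PV/+ mice carry the dominant negative PV mutation in 1 of the alleles of *Thra*, the gene of thyroid hormone receptor TRα1. The mutation is present in the germline, so every cell type of the captured tissue carries it, and changes that arise outside the uterus cannot be told apart from local ones. The ages of these 8 mice are not given in the sources used here. The libraries are called Mut1 to Mut4 (Thra1PV/+) and WT1 to WT4, the numbers being those of the labels.

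A desmosome is built in layers. Desmogleins (*Dsg* genes) and desmocollins (*Dsc* genes) are transmembrane cadherins that bind those of the adjoining cell, and their tails hold plakoglobin (*Jup*) and plakophilins (*Pkp* genes) in a plaque, to which desmoplakin (*Dsp*) ties the keratin filaments. Simple epithelia such as the lining of the uterus use mainly the isoforms *Dsg2*, *Dsc2* and *Pkp2*, while stratified squamous epithelia such as epidermis, oral mucosa and vagina add *Dsg3*, *Dsc3* and *Pkp1*. The 4 cadherin genes lie in a cluster on chromosome 18. On GRCm38, *Pkp1* lies at chr1:135871395-135919207 and *Pkp2* at chr16:16213318-16272712. *Pkp3* lies at chr7:141078218-141090510, *Dsp* at chr13:38151294-38198577, *Jup* at chr11:100368958-100397763 and *Perp* at chr10:18845020-18857073.

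The libraries held between 48791883 and 59819099 estimated counts each, and 3 counts were taken as the floor below which a level was not read. Levels are given as CPM, counts scaled to a common library size, after TMM, which equalizes the bulk of genes between libraries. The labelled tissue was checked against marker genes. *Epcam* and the lactoferrin gene *Ltf* of uterine epithelium and *Esr1* of stroma and epithelium were present at 198 CPM or more in every library. Of the 6 mesothelial markers, *Msln* and *Lrrn4* stayed at or below 0.280 CPM, while *Wt1*, which uterine stroma also expresses, had 16.8 to 144 CPM and made up most of the list's sum of 17.7 to 145 CPM. WT1 stood apart through smooth muscle genes, whose 6 markers summed to 9800 CPM there against 106 to 816 CPM in the other 7 libraries. Values that rest on WT1 are therefore also given without it where it matters. The animals are taken to be separate because the labels number them as replicates, and p-values measure only the spread between these libraries.

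Differences of at least 2-fold with an adjusted p no larger than 0.1 were called, using edgeR's quasi-likelihood test (edgeR from here on) and Benjamini-Hochberg adjustment over all tested genes. At these limits 0.99% of all tested genes were called, 0.924% being higher and 0.066% lower in Thra1PV/+ endometrium. Of the 10 desmosome genes, 3 were called, and all 3 were higher: *Dsg3*, *Dsc3* and *Pkp1*, the isoforms of stratified epithelium. The 3 simple isoforms and the 4 components shared by both types of epithelium gave 0 calls with edgeR. At an unadjusted p under 0.05 stood 0 of those 3 and 3 of those 4, and DESeq2 called 0 and 1. Over the 10 genes, 9 had a positive log2 fold change and the median was 1.05. Among them *Dsg2*, at 0.02, turned to -0.13 when the libraries were scaled to epithelial genes. Over all tested genes the median was -0.05, and 43.2% were positive. The same 3 genes were those in which every Thra1PV/+ library lay above every WT library, a separation that 6.04% of tested genes showed in either direction and 3.55% showed upward. This count moved with single libraries. Without Mut1, *Dsc2*, *Pkp3*, *Dsp* and *Perp* also separated, 7 of 10 against 12.1% of tested genes, and without WT3, *Pkp3*, *Dsp*, *Jup* and *Perp* did, again 7 of 10 against 10.2%.

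**Figure D1:**
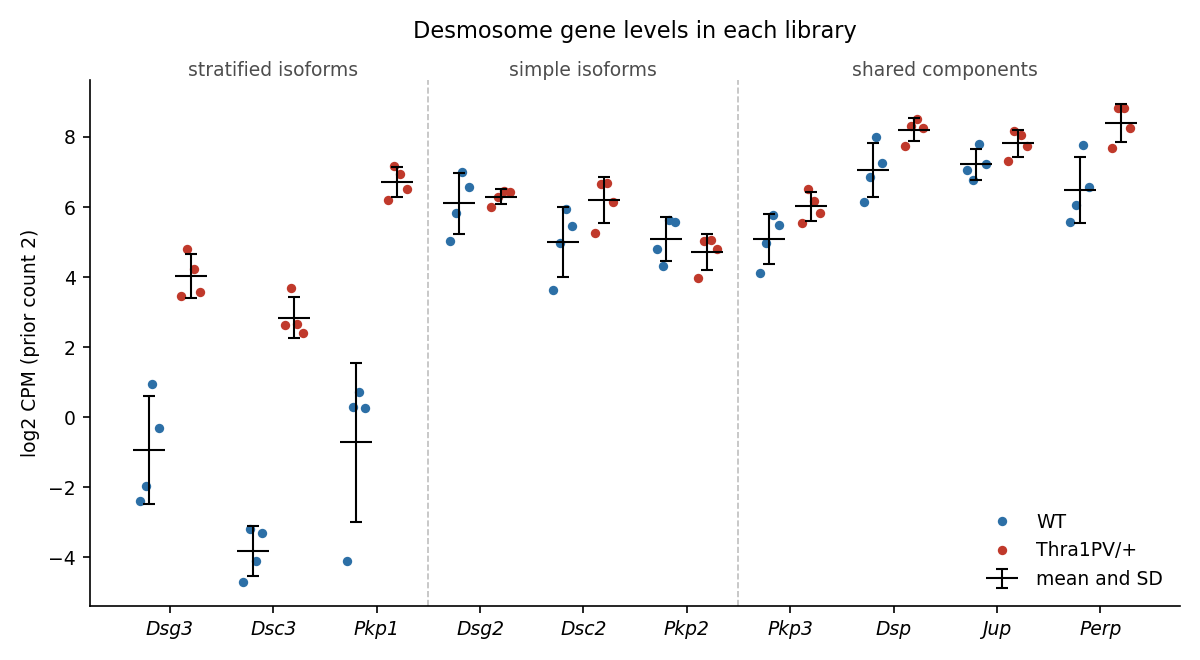
Log2 CPM (prior count 2, vertical axis) of the 10 desmosome genes in each of the 4 WT (blue) and 4 Thra1PV/+ (red) libraries, with mean and SD in black. The red and blue points are far apart for *Dsg3*, *Dsc3* and *Pkp1* and overlap for the other 7 genes, and *Pkp1* has 1 WT library at -4.12, well below the other WT libraries.

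The largest level among the stratified isoforms was that of *Pkp1*, which encodes plakophilin 1, a plaque protein of suprabasal keratinocytes. It reached 73.9, 145, 122 and 91.8 CPM in Mut1 to Mut4 and 0.0191, 1.17, 1.59 and 1.15 CPM in WT1 to WT4. Every mutant library was thus far above every WT library. WT1 had 1 count of *Pkp1*, where the other WT libraries had 55 to 80 counts. On the log2 scale the difference was 6.78 ± 0.89 (SE), with an edgeR adjusted p = 0.0181. Leaving out any 1 of the 8 libraries kept *Pkp1* called and gave 6.42 to 7.14.

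*Dsc3* encodes desmocollin 3, a cadherin strongest in the basal layer of squamous epithelia. In Mut1 to Mut4 it had 6.11, 13.0, 6.29 and 5.25 CPM. The WT libraries had 0, 4, 1 and 3 counts in all, or 0 to 0.0722 CPM, which is at or next to the floor. The gene was therefore read in all 4 mutant libraries and was barely detectable at this depth in WT endometrium. The log2 difference was 7.54 ± 0.77 (SE) with an edgeR adjusted p = 0.00582, a size that is uncertain because the WT counts are so few. Pooled over the libraries, 1580 counts in Thra1PV/+ against 8 in WT gave a ratio of 194 (exact 95% interval of 98.1 to 450 for counting error alone). The call held whichever 1 of the 8 libraries was left out.

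*Dsg3* encodes desmoglein 3, the partner of desmocollin 3 in basal and spinous layers and the antigen of pemphigus vulgaris. It had 10.9, 28.0, 18.7 and 11.9 CPM in Mut1 to Mut4 and 0.153, 0.217, 1.89 and 0.774 CPM in WT1 to WT4. The genotypes did not overlap, but the WT libraries were themselves spread over 8 to 95 counts, with WT3 highest. The log2 difference was 4.52 ± 0.84 (SE), with an edgeR adjusted p = 0.0698. This call was the least firm of the 3. It was lost in the fits without Mut1, Mut2, Mut3, Mut4, WT2 or WT4 (edgeR adjusted p of 0.103 to 0.201) and kept without WT1 or WT3. Without WT3 the log2 fold change was 5.54.

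**Figure D2:**
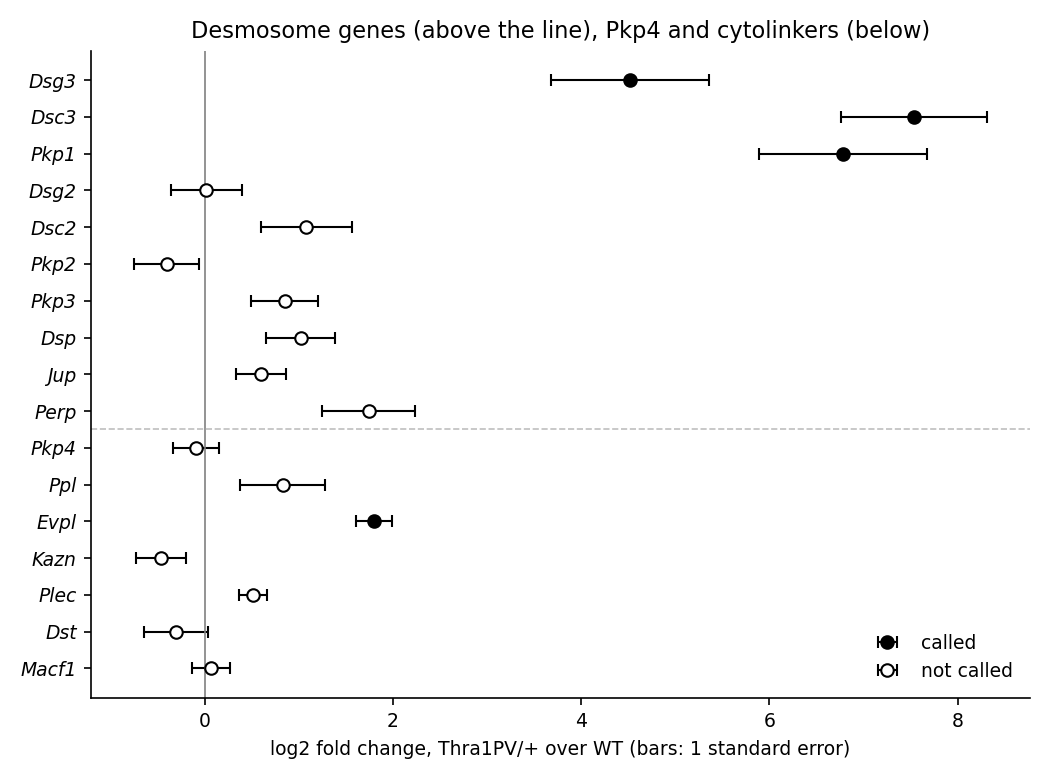
Log2 fold change of Thra1PV/+ over WT with 1 standard error for the 10 desmosome genes (above the dashed line) and for *Pkp4* and the 6 cytolinkers (below it), 4 libraries per genotype. Filled points are called: the 3 stratified isoforms lie between 4.52 and 7.54, *Evpl* lies at 1.80, and the open points lie between -0.47 and 1.75.

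Each simple isoform was read at 12.4 CPM or more in every library, and none was called. *Dsg2*, the desmoglein found in nearly all desmosome-bearing cells, had 63.4, 78.6, 88.6 and 86.3 CPM in Mut1 to Mut4 and 32.6, 57.4, 129 and 94.2 CPM in WT1 to WT4. The WT range enclosed the mutant range. The log2 difference was 0.02 ± 0.38 (SE, edgeR adjusted p = 0.995), a spread that leaves room for changes in either direction. *Dsc2*, the matching desmocollin, had 38.6, 102, 102 and 70.7 CPM against 12.4, 31.0, 61.4 and 43.7 CPM. The 3 highest mutant libraries lay above all WT libraries, and Mut1 lay within the WT range. The log2 difference was 1.08 ± 0.48 (SE, edgeR unadjusted p = 0.0553, adjusted p = 0.528). *Pkp2*, the plakophilin of simple epithelium and heart muscle, had 15.6, 32.9, 33.2 and 27.8 CPM against 28.0, 19.7, 50 and 47.1 CPM. WT3 and WT4 were above all mutant libraries, while WT1 and WT2 were not. It was the 1 member with a negative log2 fold change, -0.40 ± 0.35 (SE, edgeR adjusted p = 0.773).

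Whether the balance within each pair differed by genotype was tested on the log2 ratio of the CPM values of the stratified to the simple isoform in each library, where library scaling cancels. The exact permutation test, two-sided, went through the 70 ways to place 4 of 8 libraries and can give no p under 0.0286. All 3 pairs gave that smallest p: the ratio was higher in every Thra1PV/+ library than in every WT library. For *Dsg3* to *Dsg2* the mean log2 ratio was -2.28 ± 0.58 (SD, n = 4) in Thra1PV/+ and -7.04 ± 0.76 (SD, n = 4) in WT, a difference of 4.76 (exact permutation test, p = 0.0286). The *Dsc3* to *Dsc2* ratio differed by 5.47 (exact permutation test, p = 0.0286), with the WT side resting on at most 4 counts of *Dsc3* per library. The size therefore depends on the prior count of 2, and with 0.5 in its place the difference was 6.44. The *Pkp1* to *Pkp2* ratio differed by 7.80 (exact permutation test, p = 0.0286), from -5.80 ± 2.15 (SD, n = 4) in WT to values of 1.73 to 2.24 in the Thra1PV/+ libraries, and by 6.76 without WT1. These 3 tests share the libraries and follow the calls above, so they add the within-pair comparison and no further independent samples. Adjusted over the 3 pairs by the Benjamini-Hochberg method, each p stayed at 0.0286.

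The share of each pair taken by the stratified isoform was read on TPM. These are scaled by transcript length and so allow levels of different genes to be set side by side. The deposited TPM look quantile-normalized, which keeps the order of genes within a library but not their ratios. The shares are therefore approximate, above all in WT libraries, where counts of the stratified isoforms were few. Of the summed *Dsg3* and *Dsg2* TPM, *Dsg3* made up 17.6%, 35.4%, 23.8% and 16.2% in Mut1 to Mut4 and 0.458% to 2.63% in WT. *Dsc3* made up 4.51% to 9.96% of its pair in Thra1PV/+ and at most 0.142% in WT. *Pkp1* made up 75.3%, 71.3%, 67.8% and 65.6% of its pair in Mut1 to Mut4 and 0.253% to 2.98% in WT. Plakophilin was thus the 1 pair in which the stratified isoform exceeded the simple one, in 4 of 4 mutant libraries, while both cadherin pairs stayed mainly of the simple isoform. Over the 3 pairs together the stratified isoforms held 39.5% ± 4.34 of the TPM in Thra1PV/+ and 1.09% ± 0.597 in WT (SD, n = 4).

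**Figure D3:**
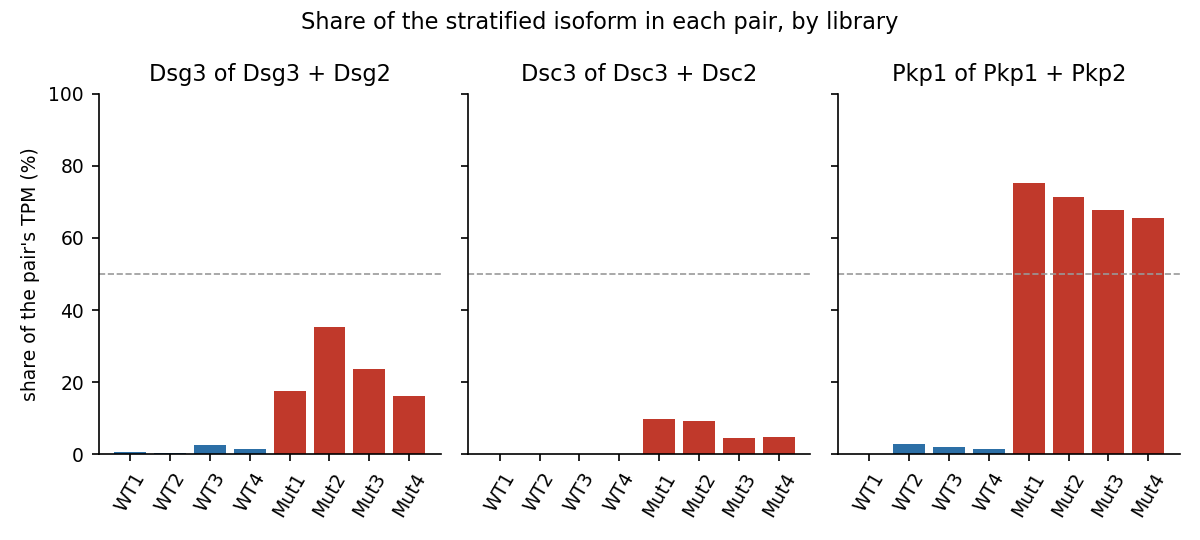
Share of the stratified isoform in the TPM of its pair (percent, vertical axis) for *Dsg3* and *Dsg2*, *Dsc3* and *Dsc2*, and *Pkp1* and *Pkp2* in each of the 8 libraries, WT in blue and Thra1PV/+ in red. The dashed line marks equal levels, which *Pkp1* passes in all 4 mutant libraries and neither cadherin passes in any.

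The shared components moved less than the stratified isoforms. *Perp*, a tetraspan membrane protein of desmosomes and a target of p63 in stratified epithelia, had 207, 459, 453 and 304 CPM in Mut1 to Mut4 and 47.1, 66.6, 216 and 94.6 CPM in WT1 to WT4. The genotypes crossed only through Mut1 and WT3. The log2 difference of 1.75 ± 0.49 (SE) was not called (edgeR adjusted p = 0.272). *Perp* was called by edgeR without WT3, at a log2 difference of 2.38 (adjusted p = 0.0535), and by DESeq2 with all libraries (adjusted p = 0.0254). With DESeq2, 4 of the 10 genes were called, all of them higher. Of the 22073 genes to which it gave an adjusted p, 3.58% were called in either direction and 2.57% upward.

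*Dsp*, whose product desmoplakin anchors keratin to the plaque, had 214, 320, 362 and 310 CPM in Mut1 to Mut4 and 70.8, 116, 255 and 154 CPM in WT1 to WT4. Mut1 lay below WT3 and the other mutant libraries lay above all WT libraries. The log2 difference of 1.02 ± 0.37 (SE) was not called (edgeR adjusted p = 0.408). *Jup*, whose product plakoglobin serves both desmosomes and adherens junctions, had 159, 290, 267 and 214 CPM against 134, 110, 222 and 149 CPM. WT3 lay within the mutant range, and the log2 difference was 0.60 ± 0.26 (SE, edgeR adjusted p = 0.522). *Pkp3*, a plakophilin found in both simple and stratified epithelia, had 47.0, 91.4, 72.5 and 56.4 CPM against 17.3, 31.4, 54.3 and 45.0 CPM. Again Mut1 lay below WT3 and the other mutant libraries above it, and the log2 difference was 0.85 ± 0.36 (SE, edgeR adjusted p = 0.493).

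Promoter sequence was at hand for *Dsp* and *Jup*, 2 of the 10 members, from RefSeq on GRCm38.p6. They are shown because no other member had such a sequence, and a link between sequence and level was not tested. Each line holds the 250 bases before the RefSeq start of the gene, 5′ to 3′ on the strand of the gene, with matches to the GC box GGGCGG or its reverse complement in capitals. The *Dsp* promoter lies at chr13:38151044-38151293 on the plus strand and the *Jup* promoter at chr11:100397791-100398040 on the minus strand. The GENCODE coordinates given above start *Dsp* directly after its window and *Jup* 27 bases further downstream of its window.
Dsp: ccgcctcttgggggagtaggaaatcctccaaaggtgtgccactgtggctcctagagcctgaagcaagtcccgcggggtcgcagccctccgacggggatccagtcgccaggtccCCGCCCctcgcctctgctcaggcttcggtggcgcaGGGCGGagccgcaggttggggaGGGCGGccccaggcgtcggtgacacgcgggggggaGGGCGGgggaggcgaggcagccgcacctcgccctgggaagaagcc
Jup: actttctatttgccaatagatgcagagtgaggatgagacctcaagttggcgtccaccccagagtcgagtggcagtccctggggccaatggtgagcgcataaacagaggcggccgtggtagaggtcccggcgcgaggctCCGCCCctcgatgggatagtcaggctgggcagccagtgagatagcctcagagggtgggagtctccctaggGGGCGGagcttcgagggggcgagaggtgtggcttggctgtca
The *Dsp* promoter held 4 GC boxes and the *Jup* promoter 2. Of all 32851 promoters in the table, 32.7% held at least 1 in the same window. The nuclear receptor half-site AGGTCA, found on either strand in 14.0% of promoters, and the AP-1 site TGANTCA, found in 6.75%, had no match in either sequence. These are matches of letters in 1 window and do not show binding or its absence.

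The order of the 10 genes within each library was read on the per-length TPM scale. *Perp*, *Jup*, *Pkp3* and *Dsp* took ranks 1 to 4 in that order in all 4 Thra1PV/+ libraries, and *Pkp2*, *Dsg3* and *Dsc3* ranked 8, 9 and 10. *Pkp1*, *Dsc2* and *Dsg2* took ranks 5 to 7 there and exchanged places between libraries, with *Pkp1* at 5 or 6. In WT libraries *Perp* and *Jup* shared the first ranks, *Pkp3* ranked 3 in 4 of 4, *Pkp1* ranked 8 or 9, and *Dsc3* was last in 4 of 4. The ranks between them varied, *Pkp2* from 4 to 7 and *Dsp* from 4 to 6. Within the Thra1PV/+ libraries *Perp* had a mean of 302 ± 81.9 TPM, *Pkp1* 27.6 ± 7.57 TPM and *Dsg3* 5.24 ± 2.71 TPM (SD, n = 4). The 10 genes together took 0.129% ± 0.0270 of all counts in Thra1PV/+ and 0.0565% ± 0.0208 in WT libraries (SD, n = 4). This share is of raw library totals, before TMM. In it every mutant library exceeded every WT library, the closest being Mut1 at 0.0933% and WT3 at 0.0834%. In CPM after TMM the separation was lost, as Mut1 lay below WT3. The shared components summed to 628 CPM in Mut1 and 748 CPM in WT3, and the simple isoforms to 118 and 241 CPM. The stratified isoforms summed to 90.9 and 3.5 CPM.

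In bulk samples a difference in RNA per cell and a difference in the number of cells of a type cannot be told apart. The desmosome genes were therefore also read against 4 genes that epithelia of either kind express, E-cadherin (*Cdh1*), the splicing regulators *Esrp1* and *Esrp2*, and the transcription factor *Grhl2*. The mean log2 CPM of these 4 genes overlapped between genotypes, from 6.35 to 7.22 in Thra1PV/+ and from 5.60 (WT1) to 7.40 (WT3) in WT libraries, so the WT libraries were the more uneven in epithelial RNA. Neither edgeR nor DESeq2 called any of the 4 (0 at an unadjusted p under 0.05). After this mean was subtracted in each library, 7 of the 10 desmosome genes separated the genotypes, all 7 being higher in Thra1PV/+. Of all tested genes 3.54% separated on this scale, 1.68% upward. Before the subtraction that share was 6.04%, so it fell while the members' count rose from 3. The share covers genes of every cell type, also those to which an epithelial mean does not apply, so it is not a like-for-like base. The 7 were *Dsg3*, *Dsc3*, *Pkp1*, *Dsc2*, *Pkp3*, *Dsp* and *Perp*. Leaving out any 1 of the 8 libraries left 7 or 8 genes separated, and these 7 were among them each time, while 3.95% to 11.1% of all tested genes separated in those settings.

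*Dsp*, which overlapped in CPM, no longer did so on this scale. Relative to the epithelial genes it lay at 1.39, 1.10, 1.39 and 1.30 in Mut1 to Mut4 and at 0.55, 0.34, 0.59 and 0.42 in WT1 to WT4, all in log2 units. The difference of means was 0.82, with an SD of 0.14 in Thra1PV/+ and 0.12 in WT (n = 4 each). On the same scale *Perp* differed by 1.59, *Dsc2* by 0.87 and *Pkp3* by 0.60. *Jup* differed by 0.28 and overlapped, because WT1 at 1.47 lay above the mutant libraries (0.76 to 0.97) while WT2 to WT4 lay at 0.26 to 0.40. *Dsg2* differed by -0.14 and *Pkp2* by -0.69, and both overlapped. In an edgeR fit scaled to the 4 epithelial genes in place of TMM, an alternative chosen after the data had been seen, the median of all tested genes was -0.47. That fit called *Dsg3*, *Dsc3* and *Pkp1* and no other member, against 0.633% of tested genes in either direction and 0.594% upward. Among the others, *Perp* came nearest at a log2 difference of 1.57 (edgeR adjusted p = 0.108), and *Dsp* and *Dsc2* had 0.82 and 0.88 (edgeR adjusted p = 0.587 and 0.595). With *Cdh1* alone as the reference, the median difference over the 10 genes was 1.21 in place of 0.84.

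**Figure D4:**
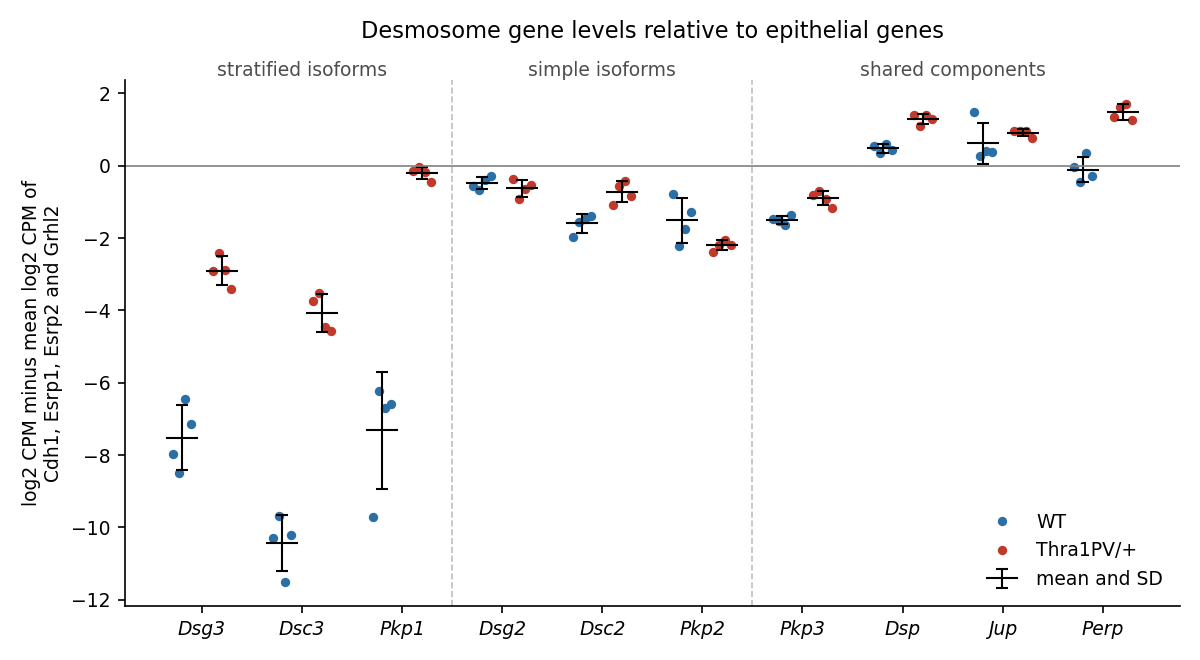
Log2 CPM of each desmosome gene minus the mean log2 CPM of *Cdh1*, *Esrp1*, *Esrp2* and *Grhl2* in the same library (vertical axis), for 4 WT (blue) and 4 Thra1PV/+ (red) libraries with mean and SD in black. *Dsp*, *Perp*, *Dsc2* and *Pkp3* join the 3 stratified isoforms in showing no overlap, *Jup* has 1 WT library at 1.47 above the mutant libraries, and *Dsg2* and *Pkp2* overlap.

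Of 7 other genes of the desmosome family, 1 had enough counts for the edgeR test. *Dsg1a*, *Dsg1b*, *Dsg1c*, *Dsg4* and *Dsc1*, isoforms of the upper epidermis and hair, had at most 0.451 CPM in any library and did not pass the count filter, and *Dsc1* had 0 counts in all 8. The *Dsg1* copies are close in sequence, so reads may have been split between them. In the mutant libraries these 5 genes stayed at or below 0.263 CPM, where *Dsc3* had 5.25 CPM or more. *Cdsn*, the corneodesmosin of cornified layers, had 14.7 CPM in Mut2, 6.17 CPM in Mut3, 0 in Mut1 and Mut4 and at most 0.497 CPM in WT libraries, and it did not pass the filter, so its genotype difference has no edgeR test. *Pkp4*, a relative of the plakophilins that sits mainly at adherens junctions, differed by -0.09 ± 0.24 (SE) on the log2 scale (edgeR adjusted p = 0.942).

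Of the 6 cytolinkers that connect keratin to junctions or to other filaments, 1 was called. *Evpl*, encoding envoplakin of the cornified envelope and of desmosomal plaques, had 49.5, 80.7, 78.6 and 64.9 CPM in Mut1 to Mut4 and 16.3, 22.5, 21.8 and 18.3 CPM in WT1 to WT4. The genotypes did not overlap, and the log2 difference was 1.80 ± 0.19 (SE, edgeR adjusted p = 0.00721). Its partner periplakin, *Ppl*, overlapped between genotypes and had a log2 difference of 0.83 ± 0.46 (SE, edgeR adjusted p = 0.619). *Plec*, for plectin, did not overlap, with 210 to 279 CPM in Thra1PV/+ and 152 to 196 CPM in WT, and was not called (log2 difference 0.51, edgeR adjusted p = 0.277). *Kazn*, *Dst* and *Macf1* differed by -0.47, -0.31 and 0.07 on the log2 scale, and none was called.

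Among the 11 genes of the adherens junction, the neighbouring actin-linked junction, 1 was called. *Nectin1*, an immunoglobulin-like adhesion molecule, had 49.1 to 100 CPM in Thra1PV/+ and 7.04 to 14.4 CPM in WT libraries, or a log2 difference of 2.85 ± 0.29 (SE, edgeR adjusted p = 0.00582). *Nectin3* differed by -0.63 (edgeR adjusted p = 0.176) and *Nectin4* by 1.23 (edgeR adjusted p = 0.456). *Cdh3*, the P-cadherin of basal layers, had 20.9 to 30.3 CPM in Thra1PV/+ and 0.957 to 4.69 CPM in WT2 to WT4, but 23.8 CPM in WT1, the library with the smooth muscle transcripts. The median log2 fold change of the 11 genes was -0.02.

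Keratins, the filaments that desmoplakin binds, were read from 2 lists. Of 6 keratins of stratified epithelium, 4 were called, all higher: *Krt5*, *Krt14*, *Krt15* and *Krt13*, with log2 fold changes of 6.08 to 7.84. *Krt4* and *Krt6a* were not called by edgeR (adjusted p = 0.406 and 0.326). All 6 had an unadjusted p under 0.05 from edgeR, and DESeq2 called all 6 as higher. Of the 4 simple keratins *Krt7*, *Krt8*, *Krt18* and *Krt19*, 0 were called by edgeR, with log2 fold changes of -0.26 to 0.55, 0 had an unadjusted p under 0.05, and DESeq2 called 0. Both lists were written with earlier results of these data known, so their direction is not independent of the desmosome result.

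The marker lists of other cell types moved as follows. Of 9 tested squamous epithelium markers, 6 were called, all higher. They were *Ivl* (log2 fold change 8.91, with at most 2 counts per WT library), *Trp63* (6.11), *Lgals7* (6.77), *Krt5*, *Krt14* and *Krt13*. These keratins, and *Krt4* among the markers not called, are also in the list of stratified keratins above, so the lists overlap. All 9 had an unadjusted p under 0.05 from edgeR, and DESeq2 called 9 as higher. The 10 markers summed to 2040 to 4040 CPM in Thra1PV/+ and 18.5 to 108 CPM in WT libraries. Within WT the order of this sum, WT3, WT4, WT2 and WT1, was also the order of *Dsg3*. The simple isoforms *Dsg2* and *Dsc2* and the mean of the epithelial reference genes had that order too, so it was not particular to squamous markers. *Pkp1*, slightly higher in WT2 than in WT4, and *Dsc3*, highest in WT2, did not follow it. Single markers did not all follow it: *Trp63* was highest in WT2, and *Sprr1a* was higher in WT1 (16.2 CPM) than in WT2 (3.02 CPM). Of 8 uterine epithelium markers, 0 were called by edgeR or DESeq2 and 0 had an unadjusted p under 0.05. The 8 endometrial stroma markers summed to 405 to 1910 CPM in Thra1PV/+ and 1140 to 2850 CPM in WT, and all 8 had negative log2 fold changes, of which edgeR called 0 (1 at an unadjusted p under 0.05) and DESeq2 1. The 6 smooth muscle markers had a median log2 fold change of -4.31. Of them edgeR called 0 (5 at an unadjusted p under 0.05), as did DESeq2, which gave no adjusted p for 4. The size of this median leaned on WT1, where the markers summed to 9800 CPM. They summed to 353 to 816 CPM in WT2 to WT4 and to 106 to 416 CPM in Thra1PV/+ libraries. The 6 endothelial markers overlapped between genotypes, with 0 calls by either tool and 0 at an unadjusted p under 0.05. Of the 6 leukocyte markers, edgeR called 0 (2 at an unadjusted p under 0.05) and DESeq2 1. Of 6 oviduct cilia markers, *Foxj1* was called and lower, and DESeq2 called 2, *Foxj1* and *Ovgp1*. *Ovgp1* had 96.3 CPM in WT2 and 53.2 CPM in WT4 and 5.55 to 8.93 CPM in the other 6 libraries. Of 6 mesothelial markers 2 could be tested, and edgeR and DESeq2 called 0 of them (0 at an unadjusted p under 0.05). The part of the amounts of squamous, stromal and muscle tissue in the desmosome values was not tested, beyond the values relative to epithelial genes given above.

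Profiles across the 8 libraries were compared among 13360 other tested genes whose log2 CPM averaged 1 or more, by the root mean square distance of log2 CPM values centred on their own mean. Nearest to the mean of *Dsg3*, *Dsc3* and *Pkp1* were *Calml3* (distance 0.38), *Lypd2* (0.40), *Kcnj15* (0.40), *Aqp3* (0.51) and *Lgals7* (0.54). Nearest to the mean of *Dsg2*, *Dsc2* and *Pkp2* were *Rnpep* (0.08), *Slc35c1* (0.10), *Lsr* (0.11), *Nipal2* (0.13) and *Tpd52* (0.13). *Calml3* and *Lgals7* are known from keratinocytes, and *Lsr* is a tricellular junction protein. The 5 genes near the stratified isoforms had log2 fold changes of 5.54 to 6.77, and the 5 near the simple isoforms had 0.15 to 0.40. The likeness is a description over 8 libraries that share a genotype contrast, and it carries no test.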

How the data were processed

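RNA-seq of laser-captured endometrium from 4 Thra1PV/+ and 4 WT mice in metestrus was analysed. Libraries were stranded mRNA libraries. The authors used Trimmomatic for trimming, salmon (genome build mm10) for quantification and DESeq2 for testing. The salmon and annotation releases are not given in the sources used here, nor whether the strand was used in counting. The authors deposited estimated counts per gene, not normalized, and TPM per gene. The sorted TPM of the 8 libraries differed by at most 0.291 at any rank, the form that quantile normalization gives. Such a step keeps the order of genes within a library but not their ratios, so shares read on TPM are approximate. As the only values scaled by length, TPM were used for levels and shares within a library. Between genotypes they served only as descriptions and in 2 limma alternatives. In the TPM table, 1 column of values without a sample was not used. Symbols were matched for 52220 of 52325 genes. Annotated genes that overlap *Pkp1*, *Dsp* or *Dsg2* had at most 20 counts in any library.

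Estimated counts were rounded and tested in R 4.3.3 with edgeR 4.0.16 (filterByExpr with minimum count 10 and minimum total 15, TMM, quasi-likelihood test, genotype as the only term). Standard errors were derived from the F statistic. DESeq2 1.42.0, limma 3.58.1, other scalings and filters, and fits without each library were alternatives. The scripts were tested on simulated data. Log2 CPM used a prior count of 2. Depth was 48791883 to 59819099 counts per library and limits the reading of low counts, such as those of *Dsc3* in WT libraries. The members, gene lists and tests were chosen with earlier results of these data known. Genes were named as all members, all other desmosome and cytolinker genes, up to 4 genes per other list by unadjusted p, and the 5 nearest profiles per isoform group. *Krt4*, *Krt6a* and *Sprr1a* were named in addition. The genes chosen for the tissue check, and those of the epithelial reference, were named by their role.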

Additional observations from a re-analysis of the deposited data

Results flagged for a closer look

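*Pkp1* in WT1 lay far from the other WT libraries, at a log2 CPM of -4.12 where they had 0.25 to 0.71. Its gap to the nearest WT library was 0.906 of the range of the 4 libraries, which exceeds the 95% critical value of Dixon's ratio for 4 samples. WT1 had 1 count of *Pkp1*, below the floor of 3 counts, so its log2 CPM leans on the prior count of 2. Among 30 groups of 4 libraries, *Pkp1* in WT was the 1 group that exceeded the critical value, where chance gives 1.5. A low value in WT1 was not particular to *Pkp1*. Among WT libraries *Krt5*, *Krt14*, *Krt15*, *Krt13* and *Krt6a* were also lowest in WT1, while *Krt4* was highest there.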

How the results depend on the processing

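For all genes, edgeR called 180, against 791 with DESeq2, 311 with limma voom and sample weights, 119 at an adjusted p of 0.05, 115 scaled to the epithelial genes, 82 with the replicate block, 81 with at least 10 counts required in every library, and 81 to 167 in fits without 1 library (lowest without Mut3). The calls among the 10 desmosome genes were 3, against 5 with limma voom (*Dsp* and *Perp* added), 2 to 4 in fits without 1 library, and 0 with at least 10 counts in every library, where *Dsg3*, *Dsc3* and *Pkp1* were no longer tested because of their low WT counts. *Dsc3* and *Pkp1* were called in all 12 other settings in which they were tested and in all 8 fits without 1 library. *Dsg3* lost its call with the replicate block (adjusted p = 0.123 from edgeR) and at an adjusted p of 0.05. The other lists had 10 calls, against 17 with DESeq2, 6 with at least 10 counts in every library, and 6 to 11 in fits without 1 library. The median of the desmosome genes relative to epithelial genes was 0.84, and 1.21 with *Cdh1* alone. *Dsg2* turned sign, from 0.02 to -0.13 when scaled to the epithelial genes, and ranged from -0.20 to 0.39 without 1 library. The cause of these moves was not tested. The replicate numbers did not pair the libraries: same-numbered libraries correlated at -0.436 to 0.34 in their deviations, and 2 of 8 matched their own number best. Under the replicate block, 2 desmosome genes were called. The *Dsg3* to *Dsg2*, *Dsc3* to *Dsc2* and *Pkp1* to *Pkp2* ratios kept their direction in every setting run. Depth limits *Dsc3*, with at most 4 counts per WT library.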
